A study of Homo sapiens with 6 samples.

Results

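HIF1A and ARNT encode the 2 subunits of the hypoxia-inducible transcription factor HIF-1, and VEGFA, NDRG1, BHLHE40, BNIP3, BNIP3L, EGLN1, EGLN3 and P4HA1 are 8 of its known target genes outside glycolysis. These 10 genes were taken by symbol, and all 10 were found among the 17202 genes of the deposited table and among the 13465 that averaged 10 normalized counts or more and were tested. They were listed with the MB1-47 and DMSO values of this experiment already known. Their differences between the groups, and their calls at a threshold, are therefore given as a description, without printed p-values. RNA was sequenced from DND41, a human leukaemia line of T-cell origin known to carry activated NOTCH1, after 24 h with MB1-47 (3 libraries) or with its solvent DMSO (3 libraries), both in RPMI medium with 10% fetal bovine serum. MB1-47 is a mitochondrial uncoupler, and its dose is written as 4 mM in the labels, a unit that was not checked. Cells were plated in triplicate, the labels do not say how far the replicates were separate cultures, and a single cell line was used.

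HIF-1 is controlled mainly through the HIF1A protein. When oxygen is present, the EGLN prolyl hydroxylases mark HIF1A, the VHL ubiquitin ligase binds the marked protein, and it is degraded. When oxygen is short, HIF1A persists, pairs with ARNT and binds a short DNA core in its targets, which serve glycolysis, blood vessel growth, removal of mitochondria, collagen maturation and feedback on HIF1A itself. Several of these targets also respond to other stress pathways. Uncouplers let protons cross the inner mitochondrial membrane without making ATP, so cells burn more oxygen and fuel. HIF1A protein was not analysed here.

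Estimated from the step between low values, depth was 25.4 to 38.0 M reads in MB1-47 libraries and 30.5 to 31.9 M in DMSO libraries. The deposited values summed to 28.3 to 29.7 M and to 30.8 to 32.7 M in these groups, without overlap. To check the labelled cell type, 11 of 12 T-lineage markers were matched in the table, and their summed level was 54537 to 60730 normalized counts in MB1-47 libraries and 89127 to 90749 in DMSO libraries. CD7, CD3D, CD3E, CD3G and RAG1 were all well above the filter, while CD2 (33.8 ± 20.0 normalized counts with MB1-47 and 49.2 ± 22.5 with DMSO; SD, n = 3) and CD5 (17.8 ± 1.22 with MB1-47 and 9.31 ± 14.4 with DMSO) were near it. Of the 11 markers, 6 were lower (54.5%, beside 19.8% of all tested genes) and 2 higher (18.2%, beside 18.3%) with MB1-47 past the limma threshold used below. Markers of other lineages, of which 7 of 12 were matched, summed to 586 to 723 in MB1-47 libraries and 1092 to 1549 in DMSO libraries, most of it PECAM1, which lymphoid cells can also express, and CD14 was at 0 in all 3 MB1-47 libraries. The part of these marker differences in the results was not tested. In a bulk library, fewer cells with a transcript and less of it per cell cannot be told apart.

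The HIF-1 core motif is known as ACGTG or GCGTG. Promoters (250 bases before to 50 after the gene start, RefSeq, build GRCh38.p14) were found for 7 of the 10 genes; VEGFA, NDRG1 and BNIP3L were not matched. ACGTG, searched on both strands, was present in 4 of the 5 target promoters, those of BHLHE40, BNIP3, EGLN1 and P4HA1, and not in that of EGLN3 or in those of HIF1A and ARNT. Among all 35116 promoters of the same length 21.4% held it, among promoters of tested genes 25.2%, and among those with at least 65% G and C 24.7%. GCGTG, present in 36.5% of all promoters on either strand, was found 4 times in the BNIP3 promoter and 1 time in the first of the HIF1A promoters, and in no other of these. Either form was present in 48.4% of all promoters, and here in the same 4 target promoters and in the first of HIF1A. The promoters of these 4 targets and of HIF1A are shown because they let the motif be read beside genes that differed by very different amounts; capitals mark ACGTG or its reverse complement CACGT, and where both overlap they form CACGTG, a motif that BHLHE40 itself is known to bind and that 7.26% of all promoters held.
BHLHE40, chr3:4979187-4979486, plus strand: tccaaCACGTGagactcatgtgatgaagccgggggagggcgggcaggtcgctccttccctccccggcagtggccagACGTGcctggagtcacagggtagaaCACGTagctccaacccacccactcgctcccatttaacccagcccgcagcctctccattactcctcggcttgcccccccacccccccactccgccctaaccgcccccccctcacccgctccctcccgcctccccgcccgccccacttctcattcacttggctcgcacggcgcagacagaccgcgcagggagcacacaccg
BNIP3, chr10:131981874-131982173, minus strand: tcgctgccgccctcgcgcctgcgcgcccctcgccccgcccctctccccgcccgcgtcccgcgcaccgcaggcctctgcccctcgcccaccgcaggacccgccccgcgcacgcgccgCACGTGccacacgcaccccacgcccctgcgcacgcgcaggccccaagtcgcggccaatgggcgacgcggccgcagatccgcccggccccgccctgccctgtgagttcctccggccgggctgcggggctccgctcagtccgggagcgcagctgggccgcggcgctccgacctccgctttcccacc
EGLN1, chr1:231422238-231422537, minus strand: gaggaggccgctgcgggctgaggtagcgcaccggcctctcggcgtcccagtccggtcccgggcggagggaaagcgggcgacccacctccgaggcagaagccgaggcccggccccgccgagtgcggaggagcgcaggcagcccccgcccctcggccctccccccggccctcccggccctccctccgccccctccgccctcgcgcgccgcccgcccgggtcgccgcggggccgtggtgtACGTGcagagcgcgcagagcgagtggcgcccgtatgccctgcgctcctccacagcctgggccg
P4HA1, chr10:73096817-73097116, minus strand: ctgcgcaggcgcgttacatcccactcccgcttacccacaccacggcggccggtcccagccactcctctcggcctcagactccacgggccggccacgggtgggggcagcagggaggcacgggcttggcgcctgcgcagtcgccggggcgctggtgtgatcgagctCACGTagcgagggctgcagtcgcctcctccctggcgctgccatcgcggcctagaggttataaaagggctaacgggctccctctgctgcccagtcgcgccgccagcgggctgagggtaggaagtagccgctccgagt
HIF1A, chr14:61695263-61695562, plus strand: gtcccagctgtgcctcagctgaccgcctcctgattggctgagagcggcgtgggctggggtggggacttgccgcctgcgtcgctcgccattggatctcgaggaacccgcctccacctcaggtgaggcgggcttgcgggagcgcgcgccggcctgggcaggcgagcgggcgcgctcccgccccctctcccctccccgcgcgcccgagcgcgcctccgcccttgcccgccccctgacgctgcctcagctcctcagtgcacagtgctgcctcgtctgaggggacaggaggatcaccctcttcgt
In BHLHE40 the match farthest from the RefSeq gene start began 245 bases before it, in BNIP3 134, in P4HA1 86 and in EGLN1 13. The gene starts of RefSeq and of GENCODE 29, used below for gene spans, differ for several of these genes. The windows of BHLHE40, EGLN1 and EGLN3 lie wholly inside the GENCODE 29 spans given below, so they are not upstream of those starts. A match in these letters is a description of the window and does not show binding.

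The HIF1A transcript was at nearly the same level in both groups while ARNT was higher with MB1-47. HIF1A, on chromosome 14 from 61695513 to 61748259 in GENCODE 29 (GRCh38), had 4531, 3581 and 4443 normalized counts in MB1-47 libraries 1, 2 and 3, against 4422, 3862 and 3801 in DMSO libraries 1, 2 and 3. The groups overlapped, and MB1-47 replicate 2 was the lowest of all 6 libraries. The log2 fold change is given here and below as MB1-47 minus DMSO on the log2(value + 1) scale. For HIF1A it was 0.05 ± 0.11 (SE, n = 3 each), with a 95% interval of -0.19 to 0.30. Without MB1-47 replicate 1 it was -0.01 and without MB1-47 replicate 2 it was 0.16. ARNT, on chromosome 1 from 150809705 to 150876768, encodes the constitutive partner that HIF1A needs to bind DNA. It had 3053, 3122 and 3274 normalized counts in MB1-47 libraries and 2120, 1887 and 1976 in DMSO libraries. Every MB1-47 library was above every DMSO library, at 1.58-fold (0.66 ± 0.09), with little spread within either group.

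**Figure D1:**
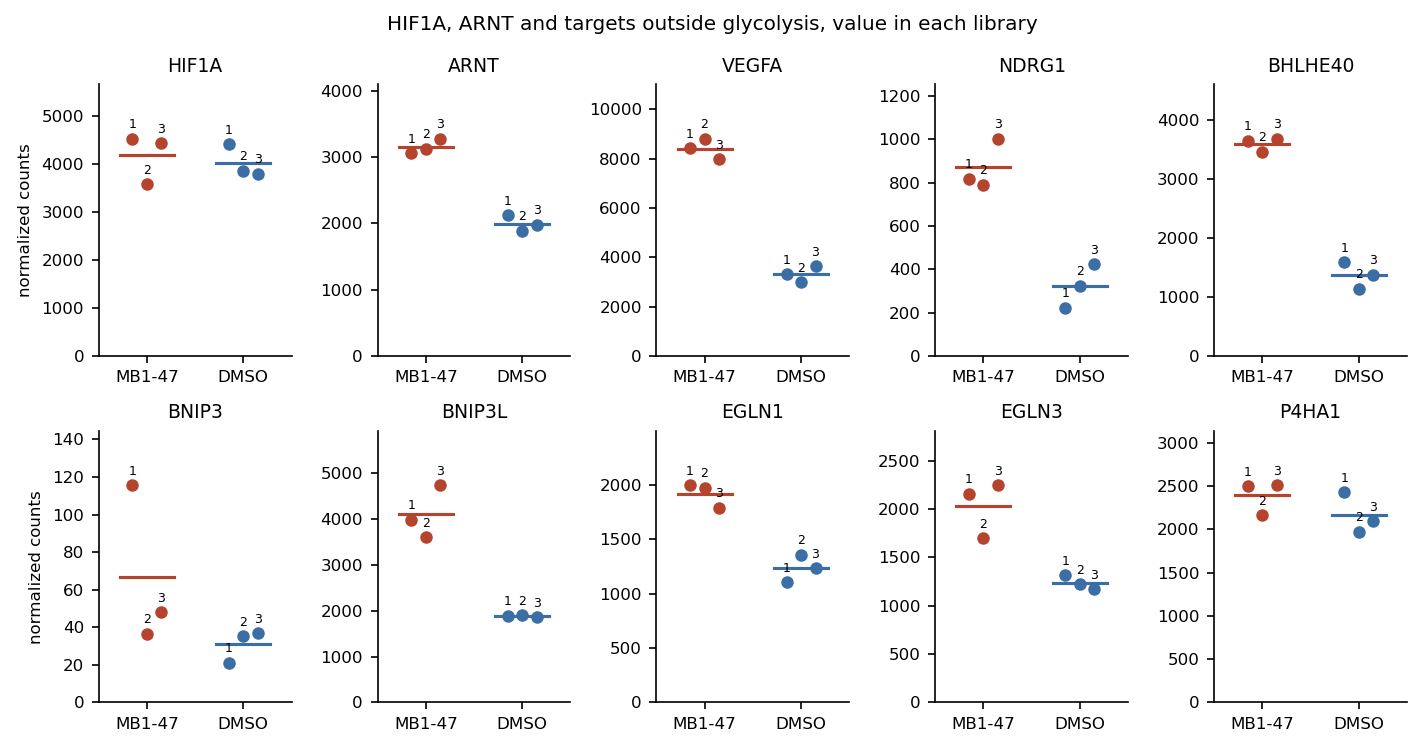
Normalized counts of the 10 genes in each library (points, numbered by replicate) with the group mean (line), MB1-47 left of DMSO; each axis starts at 0. In 7 genes every MB1-47 point lies above every DMSO point, and in HIF1A, P4HA1 and BNIP3 the groups overlap.

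In 7 of the 10 genes (ARNT and 6 of the 8 targets) every MB1-47 library was above every DMSO library, which was also so for 24.1% of all tested genes, while 25.2% were lower in the same way and 49.3% were apart in either direction. The same 7 were past an adjusted p of 0.05 in the higher direction in the limma fit over all genes, where 18.3% of tested genes were called higher and 38.1% in either direction; since these genes were chosen from this comparison, nothing is read from that count. The median change of the 8 targets was 1.03, beside 0.02 for all tested genes.

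EGLN1 and EGLN3 encode prolyl hydroxylases that mark HIF1A for degradation and are themselves induced by HIF-1, a feedback loop. EGLN1, on chromosome 1 from 231363751 to 231425044, had 1994, 1972 and 1786 normalized counts in MB1-47 libraries and 1103, 1356 and 1235 in DMSO libraries. EGLN3, on chromosome 14 from 33924231 to 34462774, had 2156, 1697 and 2244 in MB1-47 libraries and 1313, 1219 and 1172 in DMSO libraries. Both were higher without overlap, EGLN1 at 1.56-fold (0.64 ± 0.12) and EGLN3 at 1.64-fold (0.71 ± 0.13), and the nearest pair of libraries was 1.32 and 1.29 times apart. Their RefSeq promoter windows, which both lie inside these spans, differed in the motif above, with ACGTG in EGLN1 and not in EGLN3. EGLN2, the third enzyme of the family and not a member of the set, stood at 683 ± 234 with MB1-47 and 562 ± 151 with DMSO (0.26 ± 0.25, SD for levels and SE for the change, n = 3 each) and did not pass (limma adjusted p = 0.460).

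VEGFA, NDRG1 and BHLHE40 had the largest differences of the 10. VEGFA, on chromosome 6 from 43770184 to 43786487, encodes a secreted ligand that drives growth of blood vessels. It had 8426, 8806 and 7972 normalized counts in MB1-47 libraries and 3303, 2982 and 3645 in DMSO libraries, a 2.54-fold difference (1.35 ± 0.09), and its lowest MB1-47 library was 2.19 times its highest DMSO library. NDRG1, on chromosome 8 from 133237171 to 133302022, encodes a cytoplasmic protein induced by several stresses. It had 819, 791 and 1003 normalized counts in MB1-47 libraries and 223, 324 and 423 in DMSO libraries, 2.76-fold higher (1.47 ± 0.22). The DMSO libraries of NDRG1 were the least alike among the 7 genes without overlap, at 323 ± 100.2 (SD, n = 3), and the change ran from 1.22 without DMSO replicate 1 to 1.69 without DMSO replicate 3. BHLHE40, on chromosome 3 from 4979116 to 4985323, encodes a transcriptional repressor that also acts in the circadian clock. It had 3650, 3469 and 3686 normalized counts in MB1-47 libraries and 1586, 1139 and 1380 in DMSO libraries, 2.65-fold higher (1.41 ± 0.12), and the MB1-47 libraries differed from each other by a coefficient of variation of 3.23% only.

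Among the 13465 tested genes, ordered from the largest rise down, NDRG1 stood at place 509, BHLHE40 at 549 and VEGFA at 605. BNIP3L followed at 934, BNIP3 at 1280, EGLN3 at 2030, ARNT at 2199 and EGLN1 at 2282. P4HA1 at 5629 and HIF1A at 6472 were in the middle of all genes.

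**Figure D2:**
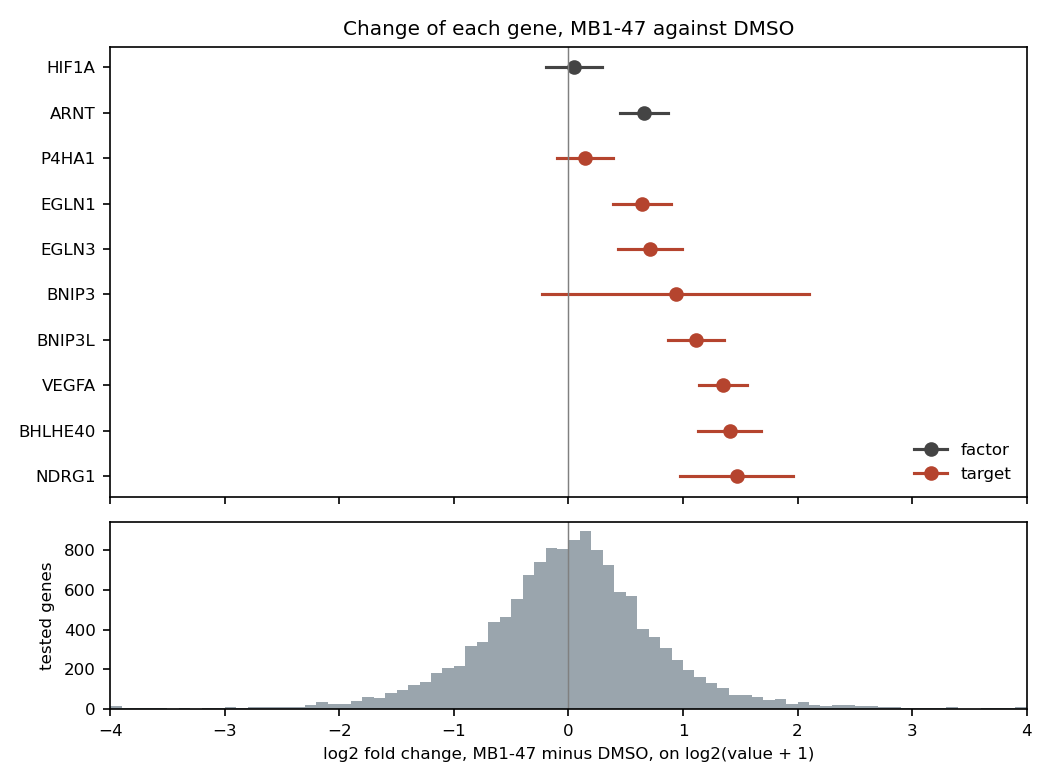
Upper panel, log2 fold change of MB1-47 against DMSO for each gene (point) with its 95% interval (line), factors in grey and targets in red; lower panel, the same change in all 13465 tested genes, with values beyond 4 or -4 drawn at the edge. HIF1A (0.05) and P4HA1 (0.14) lie near the middle of all genes and NDRG1 (1.47) lies furthest to the right of the 10.

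BNIP3 and BNIP3L encode related proteins of the outer mitochondrial membrane that recruit the autophagy machinery to mitochondria, and they differed in level and in how alike their replicates were. BNIP3L, on chromosome 8 from 26382898 to 26505636, had 3983, 3600 and 4732 normalized counts in MB1-47 libraries and 1890, 1896 and 1854 in DMSO libraries, 2.17-fold higher (1.12 ± 0.11) without overlap. BNIP3, on chromosome 10 from 131966455 to 131982013, was low throughout, with 116, 36.6 and 47.9 normalized counts in MB1-47 libraries and 21.2, 35.3 and 36.9 in DMSO libraries. Its groups overlapped, and a single library, MB1-47 replicate 1, was far above the other 5. The change was 0.94 ± 0.53 with a 95% interval of -0.23 to 2.10, and 0.45 without that library. BNIP3 also shares 20.6% of its 31-base words with transcripts of other genes in GENCODE 29, most of them with the pseudogene BNIP3P1, and BNIP3L shares none. Reads that fit several transcripts are split by estimation, so the values of BNIP3 are uncertain; of the other 8 genes EGLN1 shares 4.68% and HIF1A 3.15% of such words, ARNT and BHLHE40 under 0.2%, and VEGFA, NDRG1, EGLN3 and P4HA1 none.

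P4HA1, the catalytic subunit of the enzyme that hydroxylates proline in collagen, was the target whose profile was nearest to that of HIF1A. It lies on chromosome 10 from 73007217 to 73096974 and had 2499, 2164 and 2508 normalized counts in MB1-47 libraries, against 2428, 1972 and 2096 in DMSO libraries. The groups overlapped, the change was 0.14 ± 0.11, and the 95% interval ran from -0.10 to 0.39. Over the 6 libraries its log2 profile, centred on the DMSO mean, differed from that of HIF1A by a root mean square of 0.09, against 0.45 for ARNT and 0.46 to 1.06 for the other 7 targets. Because of this centring, the distance also reflects the size of the change, which was smallest in P4HA1 among the targets. In both genes MB1-47 replicate 2 was the lowest MB1-47 library and DMSO replicate 1 the highest DMSO library. BHLHE40 and EGLN3 shared both of these traits, so they do not set P4HA1 and HIF1A apart.

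Set against the factors, the mean change of the 8 targets was 0.97, higher by 0.92 than that of HIF1A and by 0.31 than that of ARNT. All 8 targets had a larger change than HIF1A, and 6 of 8, all but EGLN1 and P4HA1, a larger change than ARNT. Library by library, the mean of the 8 targets stood above the DMSO mean by between 0.81 in MB1-47 replicate 2 and 1.11 in MB1-47 replicate 1. In MB1-47 replicates 1, 2 and 3 HIF1A stood at 0.17, -0.17 and 0.14 and ARNT at 0.62, 0.65 and 0.72. In DMSO libraries the mean of the targets stayed between -0.08 and 0.09. MB1-47 replicate 2, the most deeply sequenced library by the estimate above, was the lowest of the MB1-47 libraries in 7 of the 10 genes and the highest in VEGFA alone, and the part of depth in this was not tested. Without each library in turn, the mean of the targets exceeded HIF1A by 0.81 to 1.01 and ARNT by 0.22 to 0.39, and 4 to 7 targets were above ARNT. Because the targets were picked with these values in view, the sign of these differences is fixed by the choice and is no sign of stability.

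**Figure D3:**
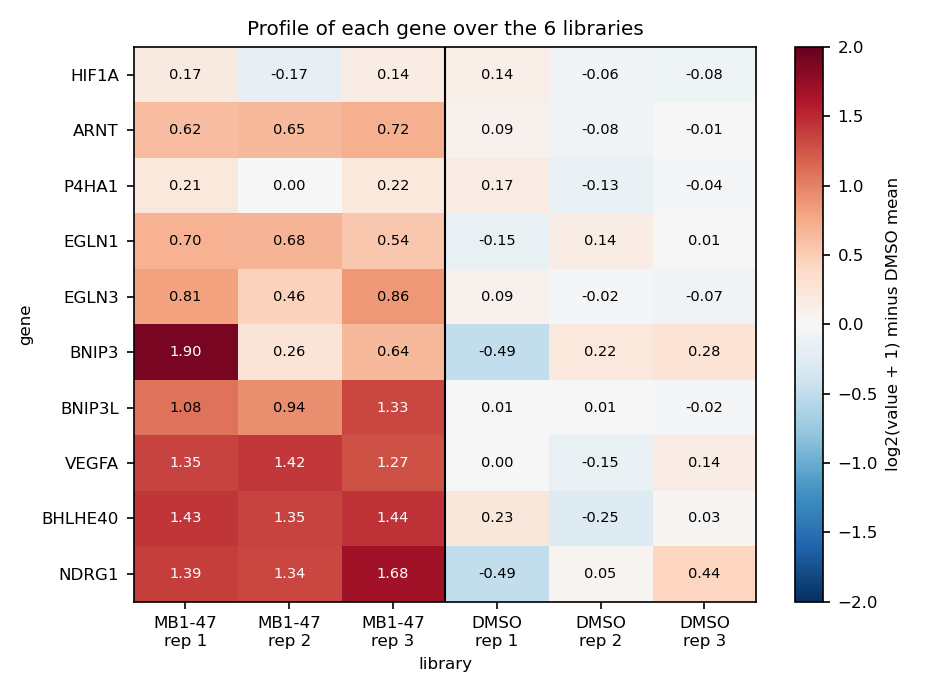
log2(value + 1) of each gene (rows) in each library (columns, MB1-47 left of DMSO), minus the gene's DMSO mean; the number in a cell is that difference and the colour repeats it. HIF1A and P4HA1 stay within 0.22 of 0 in every library, and BNIP3 reaches 1.90 in MB1-47 replicate 1 only.

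The order of levels between the genes was read per kilobase of transcript, in normalized counts divided by the median length of each gene's coding transcripts in GENCODE 29. In DMSO libraries the order from high to low was VEGFA, BNIP3L, HIF1A, P4HA1, ARNT, EGLN3, BHLHE40, EGLN1, NDRG1 and BNIP3, with EGLN3 and BHLHE40 overlapping, and likewise EGLN1 and NDRG1. In MB1-47 libraries BHLHE40 stood next below HIF1A, at 1037 ± 33.5 per kilobase against 1068 ± 134 for HIF1A (SD, n = 3), and their libraries overlapped. In DMSO libraries BHLHE40 stood at 394 ± 64.4 and HIF1A at 1028 ± 87.3, without overlap. This order depends on the length used. Per kilobase of the longest coding transcript, VEGFA was at 2377 ± 118 with MB1-47 and 936 ± 93.8 with DMSO, and in DMSO libraries HIF1A then came first with overlap between them. BNIP3L was at 1137 ± 160 with MB1-47, overlapping with HIF1A, and at 521 ± 6.32 with DMSO, below HIF1A, VEGFA and P4HA1, where by the median length it was second. In MB1-47 libraries ARNT then stood below P4HA1, and below EGLN3 with overlap, and EGLN1 stood above NDRG1 with overlap. In DMSO libraries ARNT stood below EGLN3 with overlap. BNIP3 was last in both groups by either length, at 23.3 ± 14.9 with MB1-47 and 10.9 ± 3.02 with DMSO, and among 12207 protein-coding genes ranked by this level in DMSO libraries it stood at percentile 9.83, against 76.2 for HIF1A and 92.5 for VEGFA.

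The transcripts nearest to HIF1A and to the targets were found over the 6 libraries among 10231 other tested genes with a mean of at least 100, by the root mean square difference between centred log2 profiles. Nearest to HIF1A were IARS (0.02), AC093323.1 (0.03), TWSG1 (0.04), MAPK6 (0.04) and CMAS (0.04), with changes between 0.02 and 0.09. Nearest to the mean of the 8 targets were GRINA (0.05), RNPC3 (0.05), TCEA1 (0.05), KDM3A (0.05) and IFT20 (0.07), with changes between 0.92 and 1.03. KDM3A, a histone demethylase, is itself a known HIF-1 target and belongs to the list of other targets below. With 6 libraries and so many genes, near profiles are found for most patterns, and they are given as a description.

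The other parts of the HIF system were taken as a list of 21 genes. Of 18 tested, 3 were higher (16.7%, beside 18.3% of all tested genes), 4 were lower (22.2%, beside 19.8%) and 11 missed the threshold. The median was 0.04, beside 0.02 for all tested genes. Both shares were near the background, so nothing is read from these counts about the list, and its called genes are given singly as a description. The lower genes were 2 subunits of the VHL ubiquitin ligase, a related alpha subunit and a related partner. ELOB, which links VHL to its ligase, stood at 263 ± 18.0 normalized counts with MB1-47 and 601 ± 42.6 with DMSO (change -1.19 ± 0.16, limma adjusted p = 0.000201). RBX1, the ring subunit of the same ligase, stood at 1676 ± 149 with MB1-47 and 3226 ± 88.0 with DMSO (-0.95 ± 0.10, limma adjusted p = 3.3e-05). VHL itself (-0.12 ± 0.09), CUL2 (-0.13 ± 0.10) and ELOC (-0.28 ± 0.11) did not pass, with adjusted p-values of 0.355, 0.333 and 0.0639 in limma. EPAS1, which encodes HIF2A, fell to 286 ± 68.2 with MB1-47, against 519 ± 67.1 with DMSO (-0.88 ± 0.21, limma adjusted p = 0.00732). ARNTL2, a relative of ARNT, was at 57.6 ± 44.6 with MB1-47 and 178 ± 31.3 with DMSO (-1.98 ± 0.58, limma adjusted p = 0.0196), but its change was -1.22 without MB1-47 replicate 3, and with DMSO replicate 2 left out it missed the threshold, at an adjusted p of 0.0644 (over all settings 0.00340 to 0.0891).

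The higher genes of that list were the coactivators CREBBP and EP300, which HIF-1 recruits, and SIAH2, a ubiquitin ligase that acts on the EGLN enzymes. CREBBP stood at 8767 ± 1054 with MB1-47 and 5383 ± 693 with DMSO (0.70 ± 0.11, limma adjusted p = 0.000618), and SIAH2 at 2461 ± 117 with MB1-47 and 1918 ± 56.6 with DMSO (0.36 ± 0.09, limma adjusted p = 0.0113; 0.0516 without MB1-47 replicate 3, range 0.00149 to 0.0516). EP300 overlapped between the groups, at 5240 ± 716 with MB1-47 and 3918 ± 816 with DMSO (0.43 ± 0.14, limma adjusted p = 0.0361). Its call was lost without MB1-47 replicate 1 or 2 or DMSO replicate 1 or 3 (adjusted p of 0.0546, 0.120, 0.0954 and 0.149; range 0.00303 to 0.149). HIF1AN, the asparagine hydroxylase that blocks recruitment of these coactivators, was at 8404 ± 862 with MB1-47 and 7300 ± 503 with DMSO and did not pass (0.20 ± 0.10, limma adjusted p = 0.124).

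Of 50 further HIF1A targets outside glycolysis, 37 were matched in the table and 33 tested. Of these, 12 were higher (36.4%, beside 18.3% of all tested genes), 3 lower (9.09%, beside 19.8%) and the other 18 missed the threshold. The median was 0.28 beside 0.02. This list, like the other lists here, was chosen with earlier results of these data known. Its shares and p-values are therefore a description, and nothing is read from the difference from all tested genes. CCNG2, an atypical cyclin linked to arrest of the cell cycle, stood at 6412 ± 865 with MB1-47 and 1085 ± 127 with DMSO, 5.90-fold higher (2.56 ± 0.13, limma adjusted p = 3.7e-07). BTG1, an inhibitor of proliferation in lymphocytes, stood at 8656 ± 478 with MB1-47 and 2492 ± 473 with DMSO (1.81 ± 0.13, limma adjusted p = 1.9e-06). VLDLR, a lipoprotein receptor, stood at 10749 ± 713 with MB1-47 and 4371 ± 165 with DMSO (1.30 ± 0.08, limma adjusted p = 1.1e-06). Both CCNG2 and BTG1 thus exceeded every one of the 8 targets in size of change. The other 9, named after their values were seen, were KDM3A, KDM4B, KDM4C, MXI1, DDIT4, CXCR4, INSIG2, WSB1 and RIOK3, with changes from 0.27 for CXCR4 to 1.01 for MXI1.

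The 3 lower targets were TFRC, ID2 and HILPDA. TFRC, the transferrin receptor for iron uptake, fell to 20159 ± 167 with MB1-47, against 44617 ± 1320 with DMSO (-1.15 ± 0.07, limma adjusted p = 7.9e-07). ID2, an inhibitor of basic helix-loop-helix factors, was at 1591 ± 215 with MB1-47 and 3300 ± 84.3 with DMSO (-1.06 ± 0.11, limma adjusted p = 3.3e-05). HILPDA, a lipid droplet protein, was at 294 ± 45.4 with MB1-47 and 524 ± 31.8 with DMSO (-0.84 ± 0.18, limma adjusted p = 0.00357). ERO1A, an oxidase of the endoplasmic reticulum often used as a hypoxia marker, stood at 8610 ± 675 with MB1-47 and 8882 ± 697 with DMSO and did not pass (-0.04 ± 0.09, limma adjusted p = 0.737). ANKRD37, another such marker, was low, at 59.9 ± 20.5 with MB1-47 and 35.3 ± 11.5 with DMSO (0.74 ± 0.46, limma adjusted p = 0.232).

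**Figure D4:**
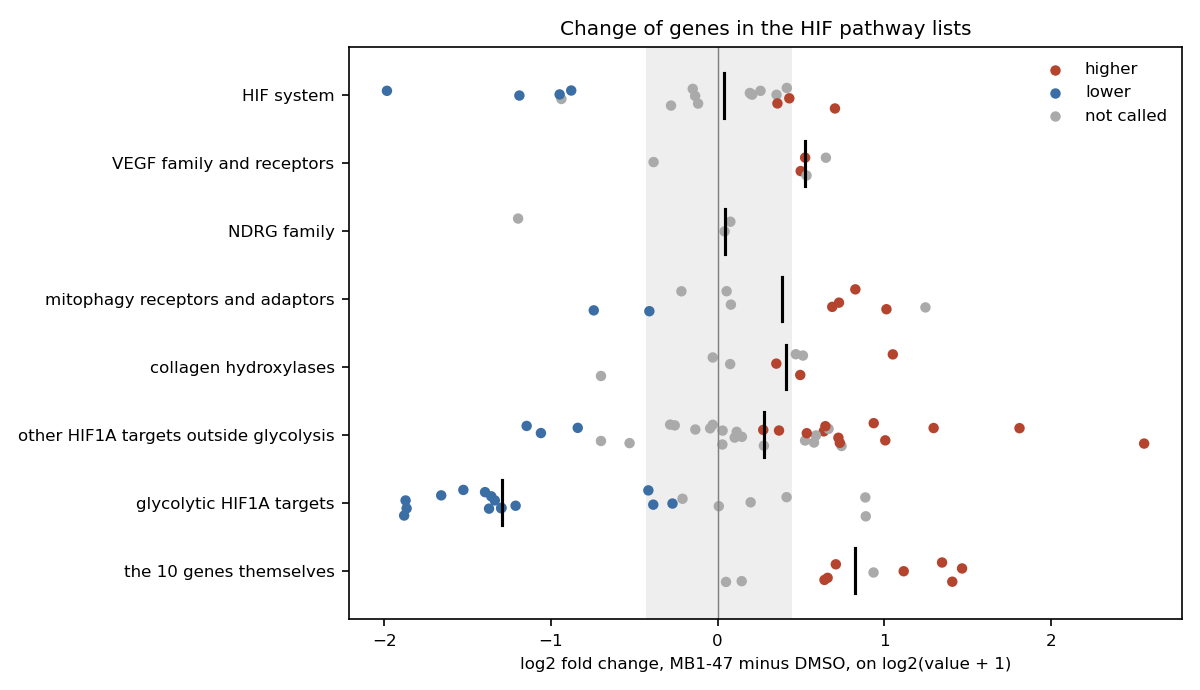
log2 fold change of MB1-47 against DMSO for each tested gene of the lists and for the 10 genes (points; vertical scatter has no meaning), coloured by the call at an adjusted p of 0.05, with the median of each row as a black bar and the range of the middle of all tested genes (-0.42 to 0.44, from percentile 25 to 75) in grey. The 10 genes are drawn for comparison only, since they were chosen from this contrast; glycolytic targets lie to the left, with a median of -1.30.

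The relatives of single targets are given next. In the VEGF family and its receptors, VEGFB (0.53 ± 0.13, limma adjusted p = 0.00816) and VEGFC (0.50 ± 0.13, limma adjusted p = 0.0129) were higher (40% of 5 tested, beside 18.3% of all tested genes) and the 3 tested receptors FLT1, FLT4 and NRP1 did not pass. VEGFB stood at 1439 ± 171 with MB1-47 and 998 ± 91.5 with DMSO, and VEGFC at 969 ± 77.5 with MB1-47 and 686 ± 61.7 with DMSO; without MB1-47 replicate 1 VEGFC missed the threshold (adjusted p = 0.0523; range 0.00430 to 0.0523). None of NDRG2 (0.04 ± 0.21), NDRG3 (0.08 ± 0.09) and NDRG4 (-1.20 ± 1.20) passed (limma adjusted p of 0.897, 0.541 and 0.471).

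Among 11 further mitophagy receptors and adaptors, 10 were tested. Of these, 4 were higher (40%, beside 18.3% of all tested genes) and 2 lower (20%, beside 19.8%), so the lower share was at the background. The higher ones were NBR1 (1.01 ± 0.13), TAX1BP1 (0.83 ± 0.10), PINK1 (0.73 ± 0.17) and CALCOCO2 (0.69 ± 0.09), with limma adjusted p-values of 0.000153, 6.0e-05, 0.00600 and 0.000164. NBR1, TAX1BP1 and CALCOCO2 bind ubiquitin-tagged cargo, and PINK1 is the kinase that accumulates on mitochondria that have lost their membrane potential. PINK1 stood at 857 ± 190 with MB1-47 and 509 ± 22.3 with DMSO. PHB2, an inner membrane receptor, fell by 0.74 ± 0.11 and FKBP8, an outer membrane receptor, by 0.41 ± 0.12 on the log2 scale (limma adjusted p = 0.000381 and 0.0166). FKBP8 missed the threshold without MB1-47 replicate 1 or 3 or DMSO replicate 2 or 3 (adjusted p of 0.0671, 0.0568, 0.0575 and 0.0576; range 0.00520 to 0.105). BCL2L13 (-0.22 ± 0.09) and FUNDC1 (0.05 ± 0.16), receptors of the same membrane as BNIP3L, did not pass (limma adjusted p = 0.0869 and 0.820).

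Of 10 other genes for collagen hydroxylation, 8 were tested. Of these, 3 were higher (37.5%, beside 18.3% of all tested genes) and 5 did not pass. P4HB, the partner subunit of P4HA1 and also a general disulfide isomerase, stood at 21277 ± 968 with MB1-47 and 15078 ± 376 with DMSO (0.50 ± 0.07, limma adjusted p = 0.000277). PLOD3, a lysyl hydroxylase, was at 382 ± 18.8 with MB1-47 and 195 ± 79.9 with DMSO (1.05 ± 0.29, limma adjusted p = 0.0145), and its change was 0.71 without DMSO replicate 1. P3H1, a prolyl 3-hydroxylase, was at 1505 ± 150 with MB1-47 and 1177 ± 94.6 with DMSO (0.35 ± 0.12, limma adjusted p = 0.0411). It passed in 9 of 15 alternative settings and missed the threshold in each setting that left out MB1-47 replicate 2 or 3 or any DMSO library (range 0.0135 to 0.132).

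The glycolytic targets of HIF1A, given only for comparison, went the other way, with 15 of 21 lower (71.4%, beside 19.8% of all tested genes), 6 not passing and a median of -1.30. With MB1-47 replicate 3 or DMSO replicate 2 left out, 1 of these 6 passed as higher. LDHA (-1.88 ± 0.09), ENO1 (-1.87 ± 0.10) and ALDOA (-1.87 ± 0.12) had the largest falls (limma adjusted p of 3.3e-07, 4.3e-07 and 1.0e-06). PDK1 (0.41 ± 0.17), SLC2A3 (0.20 ± 0.10) and PFKFB3 (-0.21 ± 0.11) did not pass (limma adjusted p of 0.0797, 0.161 and 0.146). Nor did ALDOC (0.89 ± 0.73), PFKFB4 (0.89 ± 0.47) and SLC16A3 (0.01 ± 0.24), with limma adjusted p of 0.371, 0.166 and 0.985. ALDOC and PFKFB4 were low, at 13.1 ± 6.17 and 41.7 ± 10.2 with DMSO.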

How the data were processed

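The authors deposited 1 table of normalized counts per gene symbol and library, treated here as signal; it has no header notes. GRCh38.p13, kallisto 0.44.0 and DESeq are named, with no further detail, per the submitters' processing notes; the sources used here do not give the annotation, how transcripts were summed to genes, or a filter. Values are not whole: per library, 63.0% to 70.5% of low values fell within 0.1 of whole multiples of 1 step, so reads were not recovered, and depth was only estimated as the total divided by that step. The table is relative, and RNA per cell is unknown. Strand-specific libraries were made from total RNA, per the labels' protocols.

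From these values, genes with a mean of at least 10 were tested (13465 of 17202) on log2(value + 1), which understates changes of low genes, with limma 3.58.1 (intensity trend, R 4.3.3) and Benjamini-Hochberg adjustment over all tested genes at 0.05. The 2 groups of 3 libraries are those of the labels. p-values measure only how much these libraries differ from each other, which may be technical. No pair of libraries shared a value above 0, and correlations on the log2 scale were 0.955 to 0.968 within groups and 0.927 to 0.948 between them. The steps were tested on simulated data in which genes varied independently and far fewer changed than were called here, so that setting differs from these data.

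Lists were matched by symbol (109 of 125 entries, without the markers). The 10 genes and all lists were chosen with earlier results of these data known. Named in any case were the 10 genes; from each list up to 3 genes higher and 3 lower with the largest change (mean 50 or more); and the 5 genes nearest in profile to HIF1A and to the mean of the targets. Others are named to complete a count or a family and were chosen after their values were seen. P4HA2, PLOD1 and PLOD2 stand in 2 lists. Positions are from GENCODE 29 and promoters from RefSeq (GRCh38.p14). The 31-base words are those of each gene's coding transcripts in GENCODE 29. Alternatives were pseudocounts of 0.5 and 5, filters of 50 or none, quantile normalization, scaling by trimmed mean (TMM) or to equal library totals, no trend, a replicate block, and leaving out each library in turn. Figures were drawn with matplotlib 3.10.9.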

Additional observations from a re-analysis of the deposited data

How the results depend on the processing

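Counts over all genes and over the 33 further HIF1A targets stayed within 1.5 times their main value in all 15 alternative settings. For all genes changed they ran from 4172 to 5398, and for the further targets from 10 to 14 higher, with 3 lower in each. The further targets were listed with earlier results of these data known, so nothing is read from the stability of their count. With equal library totals the median of all tested genes moved from 0.02 to 0.15 and the calls split into 3336 higher and 2062 lower, in place of 2458 and 2667. HIF1A then stood at 0.18, ARNT at 0.79, VEGFA at 1.48 and EGLN1 at 0.77, so relative to all genes they moved little. In that setting the HIF system had 5 genes higher in place of 3, the glycolytic targets 2 higher in place of none and 12 lower in place of 15, and FKBP8 missed the threshold (adjusted p = 0.105). Without the intensity trend EP300, ARNTL2, FKBP8, PLOD3 and P3H1 missed it too (adjusted p of 0.141, 0.0891, 0.0631, 0.0596 and 0.0765).

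Replicates share numbers in the labels. Deviations of same-numbered libraries correlated at 0.02, 0.06 and 0.01, and those of differently numbered libraries at -0.06 to 0.03. With 3 libraries per group, such small values cannot tell whether same-numbered libraries were handled together. With the replicate block 5246 genes were called in place of 5125, and MB1-47 replicates 1 and 2 correlated best with their own number while replicate 3 did not. Among the 10 genes the same 7 were called higher in every setting, and HIF1A, BNIP3 and P4HA1 in none. BNIP3 was not tested with a filter at 50. In the main fit 18.3% of all tested genes were called higher. Since the 10 genes were chosen from this comparison, their calls over the settings are a description and no sign of stability. For BNIP3, at a mean of 48.9 normalized counts, the 95% interval from -0.23 to 2.10 spans no change and the changes of the other 7 targets.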
